A study of Mus musculus with 5 samples.

Results

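Interferon-induced genes and the large immune GTPases were followed in Foxp3 reporter-null cells and Treg cells of the mouse colon. The set was defined by name, as every row of the count table whose symbol begins with Ifi and a digit, Ifih1, Ifit, Oas, Isg, Mx, Gbp or Irgm, together with Usp18, Rsad2, Ddx58, Dhx58, Zbp1, Xaf1, Bst2, Herc6, Cmpk2, Rtp4, Iigp1 and Igtp. It held 74 of the 24417 genes in the table. A total of 58 had enough counts to be tested. Of the other 16, 8 had 0 counts in every library (Ifi205, Ifit1bl2, Ifitm7, Oas1h, Gbp3, Gbp6, Gbp7 and Igtp) and 8 had between 1 and 34 counts over the 5 libraries. A count of 0 allows up to 3 counts in a library, which is 0.133 to 0.163 CPM (counts scaled by library size), and this limit covers counting error only.

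Type I interferons bind the receptor IFNAR1/IFNAR2 and, through the kinases JAK1 and TYK2, activate a complex that holds STAT2 and IRF9 and binds the interferon-stimulated response element (ISRE) in promoters. Interferon gamma binds IFNGR1/IFNGR2, signals through JAK1 and JAK2, and acts at promoters with the gamma-activated site (GAS). Their targets include sensors of foreign nucleic acid, proteins that block viral RNA, and GTPases that attack the membranes around intracellular microbes. USP18, itself a target, holds back signalling from the type I receptor.

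RNA was sequenced from 3 libraries of reporter-null cells, sorted as Thy1.1-positive, and 2 libraries of Treg cells, sorted as positive for Foxp3-DTR-GFP. All cells came from the colon lamina propria, the tissue under the gut epithelium, of mice with the same genotype, which joins a Foxp3 DTR-GFP allele to a Foxp3 allele with a loxP-flanked Thy1.1 and STOP cassette before GFP. Foxp3, the gene of the lineage factor of regulatory T (Treg) cells, lies on the X chromosome, so a cell uses one of the alleles. The sources used here state neither age nor whether the libraries came from separate animals. The p-values therefore cover library-to-library spread that may be technical. In its description, reporter-null replicate 1 carries the numbers 1 and 4 together.

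The libraries held 17670420 to 22395169 counts. Foxp3 stood at 75.7 to 81.3 CPM in the reporter-null libraries and at 764 and 770.0 CPM in the Treg libraries, and 6 T cell genes (Cd3d, Cd3e, Cd3g, Cd4, Lck and Cd28) summed to 5753 to 6171 CPM and to 4843 and 4915 CPM, with Cd4 called higher in reporter-null cells. A pair of libraries, reporter-null replicate 2 and Treg replicate 1, stood apart from the others. They held more transcripts of epithelial, B and plasma cell and macrophage markers, and a lower sum of early response and heat shock genes. They are called the libraries with epithelial transcripts below, a name that leaves out their other traits. The 10 epithelial markers, all of them detected, summed to 1055 CPM in reporter-null replicate 2 against 19.3 and 25.3 CPM in the other reporter-null libraries, and to 225 CPM in Treg replicate 1 against 42.9 CPM in Treg replicate 2. In all 10 the groups overlapped. Of the listed gamma-delta T cell markers only 3 had a row in the count table, so the sum does not cover the whole list. These 3, of which 2 were called higher, summed to 422 to 625 CPM in reporter-null cells and to 10.8 and 10.97 CPM in Treg cells. Markers of CD8 T cells, NK cells and innate lymphoid cells (9 genes, 1 called higher) summed to 239 to 338 CPM and to 83.7 and 105 CPM. That order did not hold for most of the list. Of its 7 tested genes 2 lay above both Treg libraries in every reporter-null library and 3 below both. Over all tested genes 20.3% lay above and 20.5% below. The log2 fold changes of the 7 marker genes, reporter-null over Treg, had a median of -0.32 and a maximum of 4.92. B and plasma cell markers (9 genes, 1 called lower) summed to 892 CPM in reporter-null replicate 2 and 1406 CPM in Treg replicate 1. In the other libraries they summed to 387 to 437 CPM. Most of each sum was Jchain alone. It had 807 CPM in reporter-null replicate 2, 1333 CPM in Treg replicate 1 and 362 to 416 CPM in the other libraries. Cd79b, the gene called lower, had 6.81 to 7.42 CPM in reporter-null cells and 20.4 and 19.2 CPM in Treg replicates 1 and 2. Macrophage markers, none of the 11 at 0 over all libraries, summed to 121 CPM in reporter-null replicate 2 and 62.1 CPM in Treg replicate 1. In the other libraries they summed to 20.8 to 25.6 CPM. Dendritic cell markers, with Clec9a and Siglech at 0, summed to 225 to 265 CPM in reporter-null cells and to 326 and 251 CPM in Treg replicates 1 and 2. Most of that sum was Ccr9 alone, with 202 to 246 CPM in reporter-null cells and 308 and 233 CPM in Treg replicates 1 and 2. The sum of 12 early response and heat shock genes, of which Fosb was called higher, was 29458 CPM in reporter-null replicate 2 and 18756 CPM in Treg replicate 1, against 53858 to 62244 CPM in the other libraries. In 5 of these 12 every reporter-null library lay above both Treg libraries and in 0 below (20.3% and 20.5% over all tested genes). The median log2 fold change of the 12 was 0.49. The 8 neutrophil and mast cell markers, with Kit called higher, summed to 15.5 to 39.4 CPM in reporter-null cells and to 8.36 and 8.79 CPM in Treg cells. The 8 stromal and endothelial markers summed to 101 to 171 CPM and to 112 and 123 CPM, and among them Pdgfrb was called higher, with 6.19 to 10.3 CPM and 0.163 and 0.277 CPM. The part of these cells and transcripts in the results below was not tested. In bulk RNA, fewer cells of a type and less RNA per cell cannot be told apart.

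The promoters of the set were read from RefSeq (GRCm38.p6) over the 250 bases before each transcription start, where 53 of the 74 members had an entry. The letters of the ISRE were searched as GAAA, any 2 bases and GAAA on either strand (TTTC, any 2 bases and TTTC when read on the other strand), and those of the GAS as TTC, any 3 bases and GAA, which reads the same on both strands. The ISRE letters were present in 28 of the 53 (52.8%), and in 22 of the 40 that were also tested (55.0%), against 3.22% of the 11258 tested genes with a promoter entry. The GAS letters were present in 10 of the 53 (18.9%) and in 6 of the 40 (15%), against 7.19%, and they overlapped ISRE letters in Bst2 alone. Among the 14 members with an entry that were lower in reporter-null cells (below), 11 (78.6%) held the ISRE letters, as did 11 of 25 tested members that were not called (44.0%). Some members share copied promoter sequence and are not independent of each other, and a match of letters is a description and not a measured binding site. The following windows belong to 4 members that were called lower, an IFIT pair, an OAS enzyme and a guanylate-binding protein, and to the modifier Isg15, which was not called. Each is written 5′ to 3′ on the strand of the gene with 20 bases on either side, cut at the start site, and capitals mark the ISRE letters, which overlap each other in Isg15 and Oas1a.
Ifit1 (chr19:34640765-34640833, plus strand): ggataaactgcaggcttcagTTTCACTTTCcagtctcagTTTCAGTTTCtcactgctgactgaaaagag
Ifit3 (chr19:34583353-34583436, plus strand): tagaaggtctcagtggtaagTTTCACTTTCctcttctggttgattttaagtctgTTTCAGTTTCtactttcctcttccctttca
Isg15 (chr4:156200855-156200916, minus strand): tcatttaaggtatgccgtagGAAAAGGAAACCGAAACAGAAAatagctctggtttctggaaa
Oas1a (chr5:120907526-120907565, minus strand): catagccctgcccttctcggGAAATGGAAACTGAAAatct
Gbp2 (chr3:142620584-142620633, plus strand): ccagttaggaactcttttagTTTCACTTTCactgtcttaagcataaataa
The first ISRE letter lay 104 bases before the start of Ifit1, 156 before Ifit3, 78 before Isg15, 20 before Oas1a and 59 before Gbp2. The window of Ifit3b, the near copy of Ifit3, was letter for letter that of Ifit3.

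A second set shows promoters within the HIN-200 cluster, because some of these neighbouring genes were lower in reporter-null cells and others were not. Capitals again mark the ISRE letters, in Ifi214 and Ifi208, which were lower, and in Ifi203, which was not called.
Ifi214 (chr1:173536007-173536056, minus strand): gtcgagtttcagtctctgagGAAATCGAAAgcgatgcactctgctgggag
Ifi208 (chr1:173673587-173673636, plus strand): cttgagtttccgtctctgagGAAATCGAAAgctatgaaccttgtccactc
Ifi203 (chr1:173942498-173942547, minus strand): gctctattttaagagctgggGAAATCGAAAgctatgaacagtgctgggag
The window of Ifi213 was identical to that of Ifi208. The capital letters were the same in these 4 genes. Elsewhere in the cluster Ifi209, which was called lower, held no ISRE letters in its window, and Ifi211, which was not called, held ISRE letters with other bases at the free positions. The letters lay 79 bases before the start of Ifi214, 58 before Ifi208, 73 before Ifi213 and 35 before one of the 2 starts of Ifi203.

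A further set shows the immunity-related GTPases Irgm1 and Irgm2 and their relative Igtp, which had 0 counts in every library.
Irgm1 (chr11:48871421-48871470, minus strand): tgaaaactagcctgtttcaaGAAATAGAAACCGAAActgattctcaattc
Irgm2 (chr11:58214893-58214942, plus strand): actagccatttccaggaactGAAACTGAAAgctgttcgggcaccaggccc
Igtp (chr11:58199502-58199551, plus strand): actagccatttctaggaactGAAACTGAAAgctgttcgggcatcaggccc
Irgm2 and Igtp shared their ISRE letters and most of the flanking bases. The sources used here do not state how reads that match several genes were counted, so counts of near-identical or overlapping genes (the IFIT, OAS1, HIN-200 and GBP copies, Irgm2 with Igtp, and Ifi27 with Ifi27l2a) are uncertain as to which copy they come from.

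Most members that differed between the groups were lower in reporter-null cells. Levels are CPM after TMM scaling, not corrected for transcript length, and log2 fold changes are given as reporter-null over Treg. Their standard errors (SE) and Benjamini-Hochberg adjusted p, taken over all 14164 tested genes, come from the edgeR quasi-likelihood test. A gene is called at an adjusted p under 0.05. Of the 58 tested members 19 were called lower and 2 higher, where 4.72% of all tested genes were called lower and 4.07% higher (8.79% in either direction). Tested members had a median log2 fold change of -0.76, against 0.02 over all tested genes. In 36 of the 58 every reporter-null library lay below both Treg libraries and in 6 above both, where 20.5% and 20.3% of all tested genes did so (40.8% in all). Summed over the 74 members, the level was 2664, 2617 and 2899 CPM in reporter-null replicates 1, 2 and 3, against 3910 and 3753 CPM in Treg replicates 1 and 2. The number called depended on single libraries. Fits that leave out a Treg library, alone or with a reporter-null one, keep 1 Treg library. When Treg replicate 1 was left out, edgeR called 7 lower and 0 higher (6 higher at an unadjusted p under 0.05). Leaving out Treg replicate 2 gave 12 lower and 0 higher (3 higher unadjusted). Leaving out reporter-null replicate 1, 2 or 3 gave 14, 27 and 17 lower and 0, 2 and 0 higher (4, 5 and 4 higher unadjusted). Calls over the whole table moved too, with 1245 genes called in all, 341 and 405 without Treg replicate 1 or 2, and 467, 2035 and 1122 without reporter-null replicate 1, 2 or 3. Without both libraries with epithelial transcripts, Treg replicate 1 and reporter-null replicate 2, it was 26 lower and 4 higher (2152 genes over the whole table). DESeq2 called 25 lower and 4 higher (2323 over the whole table). Of the 21 called members 7 were called in each of the 5 fits that left out a library, namely Usp18, Ifit1, Ifit1bl1, Ifi214, Oas1a, Isg20 and Irgm2.

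**Figure D1:**
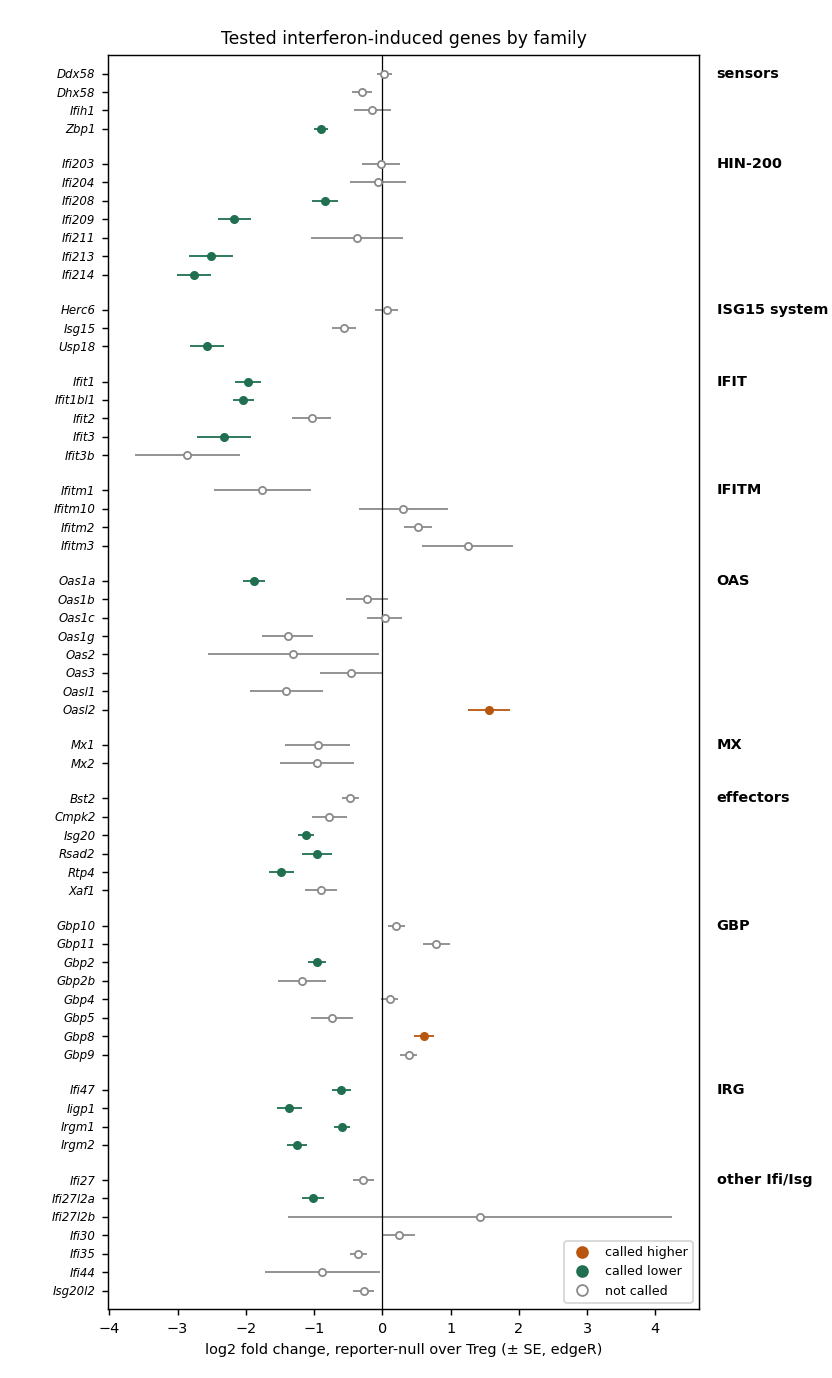
Log2 fold change of the 58 tested members, reporter-null over Treg, with its SE from edgeR, grouped by family; filled points passed an adjusted p under 0.05. Of the filled points 19 lie left of 0 and 2, Oasl2 and Gbp8, lie right of it.

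Of 3 members of the ISG15 system, Usp18 was called lower, where 4.72% of all tested genes were. ISG15 is a ubiquitin-like protein that is joined to other proteins, HERC6 is its ligase in the mouse and USP18 removes it. Usp18 had 4.39, 3.50 and 4.23 CPM in reporter-null replicates 1, 2 and 3, against 19.3 and 28.6 CPM in Treg replicates 1 and 2. The groups lay far apart (log2 fold change -2.57, SE 0.245, adjusted p = 0.00183). Isg15 had 30.1, 37.8 and 31.7 CPM in reporter-null cells, against 56.1 and 42.1 CPM in Treg cells. Its groups did not overlap, but the difference of -0.56 (SE 0.172, adjusted p = 0.103) passed only without reporter-null replicate 2 (0.0270, within 0.0270 to 0.518 over 13 alternatives). Herc6 stood at 55.9 ± 9.71 CPM in reporter-null cells (SD, n = 3) and 53.5 ± 5.49 CPM in Treg cells (SD, n = 2), with overlapping groups.

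All 5 tested genes of the IFIT family, which bind foreign RNA ends and block its translation, lay below the Treg libraries in every reporter-null library, and 3 were called lower. They are neighbours in one cluster. Of all tested genes 20.5% lay below and 4.72% were called lower. Ifit1 had 7.09, 8.93 and 7.43 CPM in reporter-null cells, against 27.6 and 33.8 CPM in Treg cells (log2 fold change -1.97, SE 0.188, adjusted p = 0.00182). Its relative Ifit1bl1, whose span overlaps that of Ifit1, had 16.3, 14.1 and 13.9 CPM in reporter-null cells, against 54.6 and 66.8 CPM in Treg cells (-2.04, SE 0.154, adjusted p = 0.000877). Ifit3 had 1.41, 1.34 and 1.16 CPM in reporter-null cells, against 5.10 and 7.95 CPM in Treg cells (-2.32, SE 0.392, adjusted p = 0.0154). Within each gene the reporter-null libraries were close together and the higher Treg library was replicate 2. Ifit2 (7.70 ± 1.52 CPM in reporter-null and 15.8 ± 5.17 CPM in Treg cells, -1.03, adjusted p = 0.0815) and Ifit3b (0.353 ± 0.211 and 2.57 ± 1.79 CPM in the same groups, -2.86, adjusted p = 0.0724) were not called. Both were called by DESeq2 (0.0224 and 0.0147). Without the libraries with epithelial transcripts, which keeps only the higher Treg library, they differed by -1.18 and -3.24. Ifit3b differed by -3.44 without reporter-null replicate 1 and by -1.87 without Treg replicate 2. Ifit3 lost its call without reporter-null replicate 1 (0.0835), Treg replicate 1 (0.0631) or Treg replicate 2 (0.142). Over 13 alternatives the adjusted p ran from 1.56e-07 to 0.201 for Ifit3, from 0.000276 to 0.408 for Ifit2 and from 2.80e-05 to 0.435 for Ifit3b.

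Genes of the oligoadenylate synthetase (OAS) family, whose enzymes respond to double-stranded RNA by making the activator of RNase L, had 1 gene called lower and 1 higher of 8 tested. The shares over all tested genes were 4.72% and 4.07%. Oas1a had 10.2, 10.5 and 11.6 CPM in reporter-null cells, against 35.2 and 44.2 CPM in Treg cells (-1.88, SE 0.167, adjusted p = 0.00147). The related Oasl2 showed the opposite order, with 7.96, 7.44 and 8.01 CPM in reporter-null cells, against 2.23 and 3.05 CPM in Treg cells (1.56, SE 0.308, adjusted p = 0.0268). Oasl1, the neighbour of Oasl2, which in the mouse restrains translation of IRF7, had 1.08, 3.02 and 1.69 CPM in reporter-null cells, against 3.85 and 6.43 CPM in Treg cells. Its groups did not overlap and its difference (-1.41, SE 0.534, adjusted p = 0.177) was not called with all libraries. It passed without reporter-null replicate 2 (0.0204). Without both libraries with epithelial transcripts, which keeps only the higher Treg library, it differed by -2.19. Oas3 was 1 of the 3 most variable members within a group among those at 5 CPM or more that were not called, with 10.1, 4.37 and 7.61 CPM in reporter-null cells and 6.46 and 13.7 CPM in Treg cells. Its difference was -0.46 with all libraries and turned to 0.19 when Treg replicate 2 was left out, and neither was called. Oas1g (-1.39, adjusted p = 0.0751) lay below both Treg libraries and passed by DESeq2 (0.0110), by voom (0.0447), without reporter-null replicate 2 (0.0129) and without both libraries with epithelial transcripts (0.000757), within 0.000757 to 0.282 over 13 alternatives. The values of Oas1c (0.03), Oas1b (-0.23) and Oas2 (-1.30) overlapped between the groups. RefSeq annotates Oas1b as a transcribed pseudogene. The call of Oasl2 was lost without reporter-null replicate 1 (0.149), reporter-null replicate 3 (0.0735), Treg replicate 1 (0.163) or Treg replicate 2 (0.0869). The adjusted p over 13 alternatives ran from 3.79e-05 to 0.209 for Oasl2 and from 5.59e-05 to 0.560 for Oasl1.

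Of 6 other antiviral effectors, all tested, 3 were called lower, and all 6 lay below the Treg libraries in every reporter-null library. Over all tested genes 4.72% were called lower and 20.5% lay below. Isg20, an exonuclease that degrades RNA, had 25.4, 26.6 and 28.1 CPM in reporter-null cells, against 57.0 and 58.8 CPM in Treg cells (-1.12, SE 0.116, adjusted p = 0.00266). Rtp4 had 11.4, 11.5 and 13.3 CPM in reporter-null cells, against 38.8 and 28.6 CPM in Treg cells (-1.48, SE 0.188, adjusted p = 0.00516). Rsad2, which encodes viperin, an enzyme that makes a chain terminator of viral RNA, had 7.42, 9.02 and 9.57 CPM in reporter-null cells, against 15.04 and 18.6 CPM in Treg cells (-0.95, SE 0.215, adjusted p = 0.0413). In each of these genes the groups were clearly apart. Cmpk2, a nucleotide kinase gene beside Rsad2, was not called (-0.77, adjusted p = 0.131), nor was Xaf1 (-0.90, adjusted p = 0.0664). Both passed without reporter-null replicate 2 (0.0378 for Cmpk2 and 0.0372 for Xaf1), and Xaf1 also by DESeq2 (0.0122) and with no filter (0.0452). Without both libraries with epithelial transcripts, which keeps only the higher Treg library for Cmpk2, Cmpk2 differed by -1.10. The adjusted p of Cmpk2 ranged from 0.00227 to 0.472 and that of Xaf1 from 0.0122 to 0.390 over 13 alternatives. Bst2, which encodes tetherin, a protein that holds budding virus at the membrane, had 36.0, 35.5 and 40.3 CPM in reporter-null cells, against 55.5 and 47.7 CPM in Treg cells (-0.47, SE 0.128, adjusted p = 0.0758). It was not called by edgeR with all libraries, and passed by DESeq2 (0.0216). Rtp4 lost its call without Treg replicate 1 (0.0540), and Rsad2 without any library but reporter-null replicate 2 (0.0605 to 0.235). Across the 13 alternatives it ran from 7.95e-09 to 0.0966 for Rtp4 and from 0.000762 to 0.235 for Rsad2.

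Neither Mx gene was called. Mx1, a dynamin-like antiviral GTPase that RefSeq annotates as a transcribed pseudogene in the reference strain, had 2.27, 1.34 and 2.05 CPM in reporter-null cells, against 2.71 and 4.58 CPM in Treg cells (-0.95, SE 0.471, adjusted p = 0.301). Its groups lay side by side without overlap. Mx2 stood at 1.76 ± 0.426 CPM in reporter-null and 3.40 ± 2.05 CPM in Treg cells, with overlap, and differed by -0.95, or by -0.15 without Treg replicate 2. By edgeR and by DESeq2 0 of the 2 genes passed, and 0 had an unadjusted p under 0.05. In the fit without both libraries with epithelial transcripts Mx2 differed by -1.28. That fit keeps only Treg replicate 2, the higher Treg library for Mx2.

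**Figure D2:**
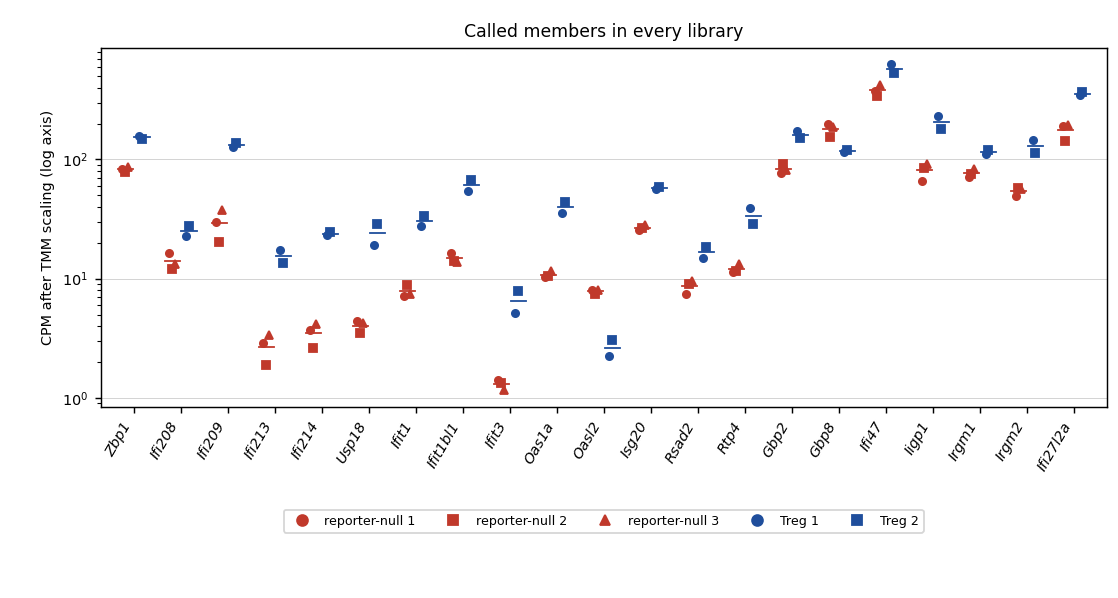
CPM after TMM scaling on a log axis for the 21 called members, with 3 reporter-null libraries (red) left of 2 Treg libraries (blue) for each gene; bars are group means. In Oasl2 and Gbp8 the red points lie above the blue ones, and in the other 19 below.

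Of the 4 sensor genes, all tested, Zbp1 was called lower, where 4.72% of all tested genes were. ZBP1 detects Z-form nucleic acid and can start necroptosis, and RIG-I (Ddx58), MDA5 (Ifih1) and LGP2 (Dhx58) detect viral RNA. Zbp1 had 83.4, 78.0 and 85.7 CPM in reporter-null cells, against 157 and 149 CPM in Treg cells (-0.89, SE 0.106, adjusted p = 0.00416). Ddx58 had 59.1, 64.1 and 63.9 CPM in reporter-null cells and 58.9 and 63.1 CPM in Treg cells, with a difference of 0.03 (SE 0.111, adjusted p = 0.909). Ifih1 had 24.5, 20.1 and 33.8 CPM in reporter-null cells and 23.3 and 34.4 CPM in Treg cells (-0.15, SE 0.269, adjusted p = 0.816). Both RNA sensors overlapped between the groups, and the spread of Ifih1 within a group exceeded the difference between them. Dhx58 lay lower in reporter-null cells (18.998 ± 0.229 CPM, against 23.4 ± 1.91 CPM in Treg cells, -0.30, adjusted p = 0.296) and was not called. Zbp1 lost its call without Treg replicate 1 (0.0557), within 9.80e-16 to 0.0802 over 13 alternatives.

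The HIN-200 genes, interferon-inducible relatives of the DNA sensor AIM2 that lie in one cluster, had 4 of 7 tested genes called lower, and these were the first 4 of the cluster in chromosomal order, Ifi214, Ifi213, Ifi209 and Ifi208. The share called lower over all tested genes was 4.72%. Ifi214 had 3.74, 2.64 and 4.18 CPM in reporter-null cells, against 23.1 and 24.6 CPM in Treg cells (-2.76, SE 0.250, adjusted p = 0.00152). Ifi213 had 2.87, 1.87 and 3.34 CPM in reporter-null cells, against 17.3 and 13.5 CPM in Treg cells (-2.51, SE 0.319, adjusted p = 0.00512). Ifi209 had 30.1, 20.4 and 37.3 CPM in reporter-null cells, against 128 and 136 CPM in Treg cells (-2.17, SE 0.241, adjusted p = 0.00428). In all of these reporter-null replicate 2 was the lowest library. Ifi208 had 16.5, 12.1 and 13.4 CPM in reporter-null cells, against 22.6 and 27.6 CPM in Treg cells (-0.84, SE 0.197, adjusted p = 0.0465). The other tested genes of the cluster, Ifi204, Ifi211 and Ifi203, overlapped between the groups with log2 fold changes of -0.07, -0.37 and -0.02. Ifi203 stood at 78.0 ± 27.2 CPM in reporter-null cells and 79.0 ± 2.77 CPM in Treg cells. Whether the genes of the cluster differ from each other in their change was not tested. Without Treg replicate 1 the adjusted p was 0.0722 for Ifi213 and 0.0505 for Ifi209, without Treg replicate 2 it was 0.0538 for Ifi209, and Ifi208 lost its call without any library but reporter-null replicate 2 (0.0879 to 0.243). Over 13 alternatives the range was 5.75e-10 to 0.0861 for Ifi213, 1.23e-21 to 0.0666 for Ifi209 and 0.00253 to 0.267 for Ifi208.

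Guanylate-binding proteins (GBPs), large GTPases that coat and break open the vacuoles of intracellular microbes, had 1 gene called lower, Gbp2, and 1 called higher, Gbp8, of 8 tested. In the cluster of Gbp5, Gbp7, Gbp3, Gbp2b and Gbp2, all 3 tested genes lay below the Treg libraries in every reporter-null library. In the cluster of Gbp8, Gbp9, Gbp4, Gbp10, Gbp6 and Gbp11, 4 of the 5 tested lay above them and the other, Gbp4, overlapped. Over all tested genes 20.5% lay below and 20.3% above, and 4.72% were called lower and 4.07% higher. Gbp2 had 76.4, 91.4 and 80.9 CPM in reporter-null cells, against 172 and 151 CPM in Treg cells (-0.96, SE 0.127, adjusted p = 0.00603). Gbp2b had 33.5, 18.96 and 43.8 CPM in reporter-null cells, against 67.1 and 77.9 CPM in Treg cells (-1.18, SE 0.346, adjusted p = 0.118). It varied more than 2-fold among the reporter-null libraries, with replicate 2 lowest, and passed without that library (0.00390). DESeq2 called it with all libraries (0.00598). Gbp8 had 198, 154 and 188 CPM in reporter-null cells, against 115 and 119.8 CPM in Treg cells (0.61, SE 0.140, adjusted p = 0.0436). Gbp4 had 359, 419 and 396 CPM in reporter-null cells and 382 and 345 CPM in Treg cells (0.11, SE 0.121, adjusted p = 0.689). Gbp9 (0.39, adjusted p = 0.114), Gbp10 (0.21, adjusted p = 0.393) and Gbp11 (0.79, adjusted p = 0.0600), which RefSeq annotates as a transcribed pseudogene, lay above both Treg libraries without a call, and DESeq2 called Gbp9 (0.0238) and Gbp11 (0.00857). Gbp5 (-0.74, adjusted p = 0.225) was not called. Gbp7 was listed at 0 in every library. A difference between the clusters was not tested. The call of Gbp2 was lost without Treg replicate 1 (0.0726), and that of Gbp8 without any library but reporter-null replicate 2 (0.0755 to 0.282). Over 13 alternatives the adjusted p ran from 2.11e-09 to 0.125 for Gbp2, 0.000465 to 0.282 for Gbp8, 1.65e-05 to 0.369 for Gbp2b, 0.0238 to 0.398 for Gbp9 and 0.00857 to 0.302 for Gbp11.

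**Figure D3:**
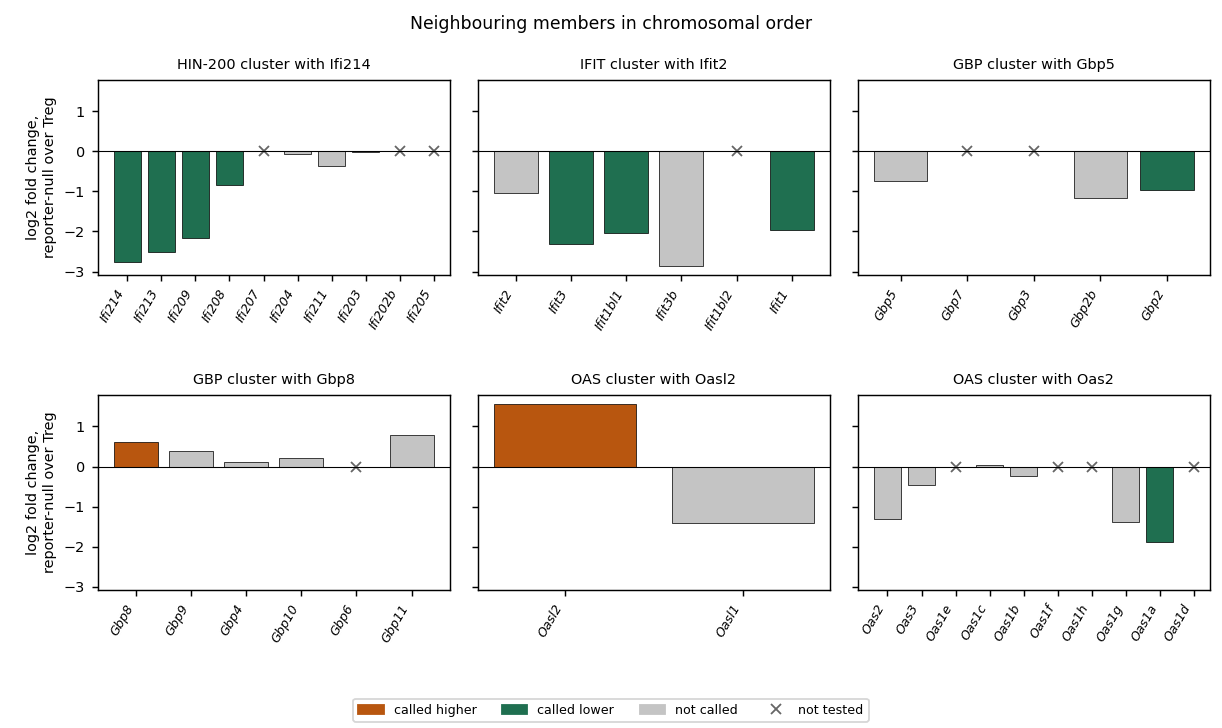
Log2 fold change, reporter-null over Treg, of HIN-200, IFIT, GBP and OAS members in chromosomal order within each cluster; crosses mark members that were not tested. The first 4 genes of the HIN-200 cluster are called lower, and the GBP cluster that starts with Gbp5 lies below 0 where the one that starts with Gbp8 lies above it.

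Immunity-related GTPases (IRGs), smaller relatives that act on the same vacuoles, were lower throughout, with all 4 tested called. Irgm1 and Irgm2 regulate the others, and Iigp1 and Ifi47 are effectors. Of all tested genes 4.72% were called lower. Iigp1 had 66.0, 84.5 and 91.9 CPM in reporter-null cells, against 233 and 181 CPM in Treg cells (-1.36, SE 0.178, adjusted p = 0.00576). Irgm2 had 49.0, 57.6 and 56.4 CPM in reporter-null cells, against 145 and 114 CPM in Treg cells (-1.25, SE 0.146, adjusted p = 0.00399). Irgm1 had 71.3, 75.6 and 83.9 CPM in reporter-null cells, against 110.5 and 121 CPM in Treg cells (-0.59, SE 0.120, adjusted p = 0.0296). In none of these genes did the groups overlap, and the nearest libraries lay closer together in Irgm1 than in Irgm2. Ifi47 had 378, 341 and 425 CPM in reporter-null cells, against 629 and 527 CPM in Treg cells (-0.60, SE 0.142, adjusted p = 0.0486). Iigp1 lost its call without Treg replicate 1 (0.0647), Irgm1 without reporter-null replicate 1 (0.149), Treg replicate 1 (0.132) or Treg replicate 2 (0.179), and Ifi47 without the same libraries (0.186, 0.328 and 0.125) and without both libraries with epithelial transcripts (0.271). The adjusted p over 13 alternatives ran from 6.80e-10 to 0.111 for Iigp1, 0.000117 to 0.179 for Irgm1 and 0.000572 to 0.328 for Ifi47.

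Interferon-induced transmembrane proteins (IFITMs), which hinder fusion of viruses with cell membranes, gave no call. By edgeR 0 of 4 tested passed, with 2 at an unadjusted p under 0.05 (Ifitm1 and Ifitm2), and DESeq2 called 0. Ifitm3 had 4.55, 11.8 and 5.30 CPM in reporter-null cells and 4.67 and 1.39 CPM in Treg cells (1.25, SE 0.669, adjusted p = 0.345). Its highest reporter-null library was replicate 2 and its higher Treg library replicate 1, the libraries with epithelial transcripts. Without both it was called higher (0.00310, within 0.00310 to 0.710 over 13 alternatives), in a fit that leaves 1 Treg library, and the log2 value was 2.37 when Treg replicate 1 was left out and 0.63 when Treg replicate 2 was. Ifitm2 had 30.1, 26.5 and 31.7 CPM in reporter-null cells, against 24.6 and 16.4 CPM in Treg cells (0.52, SE 0.210, adjusted p = 0.202), and was likewise called without both libraries (0.00165, within 0.00165 to 0.572). Ifitm1 had 0.812, 0.960 and 0.756 CPM in reporter-null cells, against 4.72 and 1.02 CPM in Treg cells (-1.76, adjusted p = 0.202), a difference carried by Treg replicate 1. The rule by name also took in Ifitm5 and Ifitm10, of which Ifitm5 is known for a role in bone.

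Among members that share only the prefix, Ifi27l2a had 190.2, 142 and 196 CPM in reporter-null cells, against 345 and 367 CPM in Treg cells (-1.02, SE 0.159, adjusted p = 0.0113). Its neighbour Ifi27, with an overlapping span, lay below the Treg libraries too (-0.28, adjusted p = 0.354) and was not called. Ifi27l2b, the other neighbour, followed the epithelial markers, with 12.4 CPM in reporter-null replicate 2 and 2.82 CPM in Treg replicate 1, against at most 0.277 CPM in the other libraries. Ifi30, a thiol reductase of the lysosome used in antigen processing, had 14.9, 16.7 and 22.2 CPM in reporter-null cells and 13.1 and 17.2 CPM in Treg cells (0.24, SE 0.234, adjusted p = 0.622). Ifi35 (-0.35, adjusted p = 0.160), Ifi44 (-0.88, adjusted p = 0.622) and Isg20l2 (-0.27, adjusted p = 0.371) were not called. Ifi27l2a lost its call without Treg replicate 1 (0.0951) or Treg replicate 2 (0.104), within 9.55e-08 to 0.112 over 13 alternatives.

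The genes upstream of these targets were examined from a list of 67 ligand, receptor, signalling, sensing and feedback genes, of which 46 were tested, 8 called lower and 2 higher (over all tested genes, 4.72% were lower and 4.07% higher). Of 21 ligand genes 16 had 0 counts, among them Ifnb1 and the interferon alpha genes on the list, and only Ifng was tested. Ifng, the ligand of the gamma receptor, had 77.4, 87.7 and 88.5 CPM in reporter-null cells, against 24.3 and 39.7 CPM in Treg cells (1.40, SE 0.219, adjusted p = 0.0116). Its order was opposite to that of most members, and it was called in each fit that left out a library. Ifngr1, the binding chain of its receptor, had 873, 1384 and 788 CPM in reporter-null cells, against 2174 and 1674 CPM in Treg cells (-0.92, SE 0.268, adjusted p = 0.0973). Ifngr2, its partner chain, had 30.3, 42.5 and 33.0 CPM in reporter-null cells, against 65.9 and 55.2 CPM in Treg cells (-0.78, SE 0.174, adjusted p = 0.0404). Both chains were highest in replicate 2 among the reporter-null libraries. Ifnar1, the signalling chain of the type I receptor, had 139, 213 and 125 CPM in reporter-null cells, against 308 and 245 CPM in Treg cells (-0.80, SE 0.248, adjusted p = 0.118). Without reporter-null replicate 2 Ifngr1 (0.000583, within 4.66e-05 to 0.441 over 13 alternatives) and Ifnar1 (0.000838, within 0.000424 to 0.481) passed. DESeq2 called Ifngr1 and Ifnar1 with all libraries (0.00600 and 0.0193). Il10rb, a chain shared by the receptors for IL-10 and interferon lambda, was lower (-0.61, adjusted p = 0.0359). Ifngr2 and Il10rb each lost the call without any library but reporter-null replicate 2 (0.100 to 0.274 and 0.0735 to 0.252), with ranges of 0.00170 to 0.274 and 0.00115 to 0.252 over 13 alternatives.

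Of the transcription factors that carry the signal, Irf9 and Irf7 transcripts were called lower and those of Stat2 were not called. Irf9 had 93.7, 92.7 and 103 CPM in reporter-null cells, against 147 and 143 CPM in Treg cells (-0.59, SE 0.107, adjusted p = 0.0195). Stat2 had 78.7, 76.0 and 63.8 CPM in reporter-null cells and 75.9 and 74.6 CPM in Treg cells (-0.05, SE 0.129, adjusted p = 0.880). The Irf9 groups were clearly apart, and those of Stat2 overlapped. Irf7, which amplifies the type I response, had 78.6, 104.9 and 68.1 CPM in reporter-null cells, against 173 and 167 CPM in Treg cells (-1.02, SE 0.185, adjusted p = 0.0200). Irf1, a target and mediator of interferon gamma, lay below both Treg libraries (-0.39, SE 0.113, adjusted p = 0.0936), and passed by DESeq2 (0.000279). Irf2bp2, a corepressor partner of IRF2, was the gene of this list other than Ifng that was higher (0.81, adjusted p = 0.0330). Irf9, Irf7 and Irf2bp2 each lost the call without Treg replicate 1 (0.155, 0.156 and 0.239), Treg replicate 2 (0.115, 0.122 and 0.0892) or reporter-null replicate 1 (0.121, 0.101 and 0.108). Without both libraries with epithelial transcripts Irf9 (0.0586) and Irf2bp2 (0.0731) were not called. Over 13 alternatives the highest adjusted p were these values without Treg replicate 1, and the lowest were 5.71e-07, 1.82e-07 and 0.000459.

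**Figure D4:**
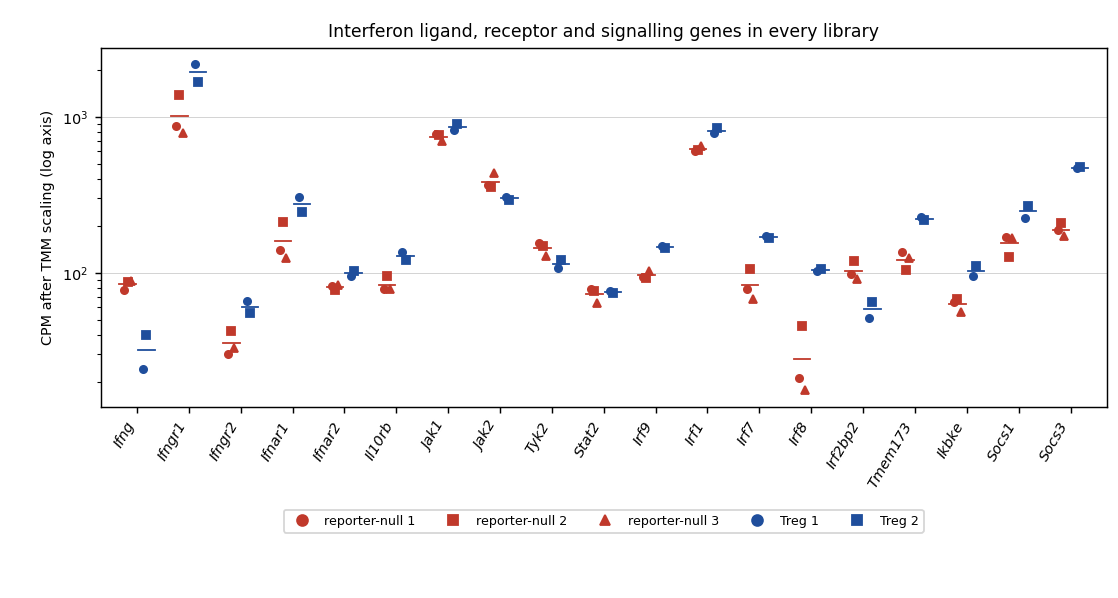
CPM after TMM scaling on a log axis for 19 genes of interferon signalling, with 3 reporter-null libraries (red) left of 2 Treg libraries (blue) for each gene; bars are group means. Ifng is higher in the red libraries, and Irf9, Irf7, Tmem173, Ikbke and Socs3 are lower.

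Among sensing and feedback genes, Socs3, an inhibitor of JAK kinases, had 188, 207 and 171 CPM in reporter-null cells, against 469 and 473 CPM in Treg cells (-1.32, SE 0.120, adjusted p = 0.00152). Tmem173, which encodes the adaptor STING, had 135, 104.2 and 125 CPM in reporter-null cells, against 227 and 218 CPM in Treg cells (-0.87, SE 0.137, adjusted p = 0.0112). Ikbke, a kinase that activates interferon regulatory factors, was lower too (-0.71, adjusted p = 0.0228). Socs3 was called in each fit that left out a library, whereas Tmem173 lost its call without either Treg library (0.116 and 0.0872), and Ikbke without those (0.0890 and 0.152) or reporter-null replicate 1 (0.0974). Over 13 alternatives the ranges were 1.28e-07 to 0.116 for Tmem173 and 0.000161 to 0.152 for Ikbke.

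Interferon targets outside the set were called lower more often than higher. Of 85 on the list, which was chosen with results of these data known, 81 were tested, 17 called lower and 2 higher (over all tested genes, 4.72% and 4.07%), with a median of -0.26. Ly6a, which encodes the surface protein Sca-1, had 221, 194 and 210 CPM in reporter-null cells, against 780.1 and 655 CPM in Treg cells (-1.79, SE 0.127, adjusted p = 0.000715). Gm12250, an IRG gene not taken in by the rule, had 20.7, 24.3 and 22.5 CPM in reporter-null cells, against 78.1 and 71.1 CPM in Treg cells (-1.73, SE 0.123, adjusted p = 0.000715). Samhd1, an enzyme that destroys the nucleotides viruses need, was lower (-1.26, adjusted p = 0.00144), as was Apol9b (-3.48, adjusted p = 0.00162). All of these were called in each fit that left out a library. The 2 higher genes were Lgals3bp (1.26, adjusted p = 0.0131) and Slfn2 (0.53, adjusted p = 0.0455), which were named after their values were seen. Leaving out Treg replicate 1, Treg replicate 2 or reporter-null replicate 1 each gave 7 lower and 0 higher genes by edgeR (3, 5 and 4 higher at an unadjusted p under 0.05).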

How the data were processed

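RNA-seq was available for 5 libraries, 3 of reporter-null and 2 of Treg cells, grouped by sample title. Per the labels' protocols, poly(A) RNA was converted and amplified by SMART-Seq v4 and read as paired ends on an Illumina HiSeq. The authors deposited whole-number counts per gene symbol, not normalised, as the values show. The submitters' processing notes name DESeq and give it no role. The sources used here do not name an aligner, build, annotation or strand setting.

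Of 24421 rows, 4 were named NA and left out (at most 0.00492% of a library). No replicate pair agreed within sampling noise (chi-square per degree of freedom at least 16.9). In R 4.3.3, filterByExpr (minimum count 10, minimum total 15) kept 14164 genes, scaled with TMM factors and tested with the robust quasi-likelihood F test of edgeR 4.0.16, with Benjamini-Hochberg adjustment at 0.05. The SE is the size of the log2 fold change divided by the square root of F. Steps were tested on simulated counts.

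Members, lists and tests were chosen with earlier results of these data known. By rule, values per library are given for called members, 21 fixed members, the 3 with most CPM and the 3 most variable uncalled ones, and for upstream genes 8 fixed ones and up to 4 called per list. One upstream gene that the rule names is not reported here. Neighbours are members with at most 3 other genes between them in RefSeq (GRCm38.p6), where all 74 symbols matched. Alternatives were RLE factors, DESeq2 1.42.0, voom of limma 3.58.1, no filter, a filter of CPM 1 in 2 libraries, each library left out, both libraries with epithelial transcripts left out, and replicate blocks.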

Additional observations from a re-analysis of the deposited data

How the results depend on the processing

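RLE factors, voom, no filter and the CPM filter each left the counts of called members, upstream genes and other targets within 1.5 times those reported. DESeq2 called 4 members, 5 other targets and 7 upstream genes higher and 16 upstream genes lower, and all 21 called members were among its calls. Leaving out 1 library, or Treg replicate 1 with reporter-null replicate 2, gave 0 to 4 members higher and 7 to 27 lower, 0 to 3 other targets higher and 7 to 22 lower, and 1 to 4 upstream genes higher and 1 to 13 lower. The causes were not tested.

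Replicate numbers shared by the groups gave 2 pairs, and the labels do not say that a number marks a shared animal. In a block fit only the pairs inform the group difference, and the reporter-null library without a partner does not. Little is then left to estimate the spread. Same-numbered libraries deviated against each other by title number (r = -0.51 and -0.60 across genes) and together by description number (r = 0.60 and 0.48). Deviations were taken from the group mean, so those of the 2 Treg libraries are equal and opposite. The values -0.60 and 0.60 are therefore the same value with its sign turned, and these correlations are not separate checks of the numberings. With a replicate block by title number edgeR called 0 members higher and 0 lower (3 and 23 at an unadjusted p under 0.05), 0 other targets higher and 0 lower (6 and 30), and 0 upstream genes higher and 0 lower (6 and 14), with 24 genes called over the whole table. With a replicate block by description number it called 2 members higher and 19 lower, 17 of them among the 21, without Gbp8, Ifi47, Irgm1 and Rsad2.

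Signs turned only in genes that were not called. Over the fits that left libraries out, the log2 fold change ran from -0.40 to 0.17 for Ifih1, -0.0313 to 0.0865 for Ddx58, -0.32 to 0.18 for Ifi203, -0.28 to 0.0902 for Ifi204, -0.0430 to 0.19 for Herc6, -0.0660 to 0.17 for Oas1c, -3.20 to 1.19 for Oas2, -0.90 to 0.19 for Oas3 and -0.11 to 0.0385 for Stat2. With a replicate block by title number it was -0.0512 for Herc6, -0.0803 for Oas1c and 0.0395 for Stat2, and with a replicate block by description number 0.0053 for Ifi204 and -0.0459 for Oas1c. Voom gave -1.10 for Ifi27l2b. With 2 Treg libraries, fits without one of them assume that the lone library varies like the others. At these depths members under 1 CPM on average, such as Ifi211, Ifi44 and Oas2, had SEs above 0.6.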
